A study of Mus musculus with 22 samples.

Results

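Repeated morphine was compared with saline in the nucleus accumbens of mice with an intact gut microbiome. These were the libraries titled as H2O with morphine (5) or H2O with saline (6), which made 11 of the 22 libraries of the study, each from 1 numbered sample. All came from male C57BL/6J mice aged 7 to 9 weeks, conventionally raised, group-housed and drinking water without antibiotics. The morphine group received 20 mg/kg per day for 7 days and the other group saline, and the remaining 11 libraries came from mice whose microbiome had been depleted with antibiotics. The labels name no genetic change, so every group carried the same strain background. They do not say whether a library came from 1 animal, and p-values therefore measure the spread between these libraries. RNA was counted gene by gene, and levels are given as CPM, counts of a gene relative to all counts assigned to genes, scaled between libraries. Counts assigned to genes ran from 9490687 to 15330947 per library.

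The nucleus accumbens is the ventral part of the striatum, where dopamine and glutamate inputs meet on GABAergic projection neurons and where opioids act on reward. Morphine acts mainly through the mu-opioid receptor, which couples to inhibitory Gi/o proteins, lowers cyclic AMP, opens potassium channels and closes calcium channels at synapses. Repeated exposure is known for slower adaptations of these pathways, of synapses and of chromatin.

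The libraries carried the transcripts of the striatum: the summed level of 28 markers of striatal projection neurons averaged 13057 ± 2179 CPM with morphine and 15020 ± 1901 CPM with saline (SD, n = 5 and 6; exact permutation test, two-sided, adjusted over 20 library measures, p = 0.196). A single morphine library, number 4, stood apart from the rest in what it held. Its 21 cortical and septal neuron markers summed to 1704 CPM, against 533 to 703 CPM in the other 4 morphine libraries and 588 to 1213 CPM in the saline libraries. Penk and Pdyn, the precursors of enkephalin and dynorphin, were also low there, at 838 and 228 CPM. For the gene lists, leaving this library out was chosen after its values were seen. Of the genes named below, 13 passed the threshold with it and missed it without it, and their values without it are given beside them, as are the list counts that it moved most.

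In all, 959 of 14564 genes tested (6.58%) passed the threshold, which was an adjusted p under 0.05 in the edgeR quasi-likelihood F-test with Benjamini-Hochberg adjustment over every gene tested. Of these, 570 (3.91% of the genes tested) rose with morphine and 389 (2.67%) fell. Log2 changes are morphine minus saline and carry a standard error (±) from the same test. Changes were small, with a median of 0.30 on the log2 scale for the genes that rose and -0.22 for those that fell. A gain of 2-fold or more was seen for 12 genes, each with a mean under 10 CPM with saline, and a loss of that size for 1. The 570 and 389 genes were picked by a test on these same libraries, so agreement among the libraries is largely built in. The counts of agreement therefore describe the lists and are no separate support for them. Each of the 5 morphine libraries exceeded the saline mean for 561 of the 570 genes, and fell short of it for 385 of the 389. All 5 lay above all 6 saline libraries for 338 of the genes that rose and below them for 252 of those that fell, where the same was seen for 452 (3.1%) and 398 (2.73%) of all genes tested. Without morphine library 4 the counts were 565 higher and 315 lower. They were most sensitive to morphine library 2, without which 355 were higher and 154 lower, and to saline library 8, without which 340 were higher and 209 lower.

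Start regions of 4 genes, each a subject of a result below, are printed from RefSeq (build GRCm38.p6), with 250 bases before the annotated start and 50 after it. Erbb4 stands for the long transcripts that rose. Sst stands for the peptide genes of interneurons that fell, and Cox6a1 and Ndufb7 for the respiratory chain. Capitals mark the ETS core CCGGAA, the cyclic AMP response element TGACGTCA and the NRF1 motif GCGCATGCGC, each searched on both strands. The regions are chr1:69108010-69108309 (minus strand) for Erbb4, chr16:23890795-23891094 (minus) for Sst, chr5:115348909-115349208 (minus) for Cox6a1 and chr8:83566508-83566807 (plus) for Ndufb7.
Erbb4: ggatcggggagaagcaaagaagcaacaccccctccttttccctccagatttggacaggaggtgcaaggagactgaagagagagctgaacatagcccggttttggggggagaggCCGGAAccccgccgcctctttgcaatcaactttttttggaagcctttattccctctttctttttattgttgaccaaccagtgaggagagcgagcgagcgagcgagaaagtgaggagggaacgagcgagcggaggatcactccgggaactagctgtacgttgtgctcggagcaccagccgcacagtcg
Sst: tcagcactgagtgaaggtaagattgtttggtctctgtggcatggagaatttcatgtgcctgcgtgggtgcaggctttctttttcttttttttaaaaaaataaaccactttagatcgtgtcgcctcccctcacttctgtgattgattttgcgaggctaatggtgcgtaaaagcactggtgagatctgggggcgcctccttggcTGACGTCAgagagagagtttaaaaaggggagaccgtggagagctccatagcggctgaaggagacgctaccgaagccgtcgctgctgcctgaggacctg
Cox6a1: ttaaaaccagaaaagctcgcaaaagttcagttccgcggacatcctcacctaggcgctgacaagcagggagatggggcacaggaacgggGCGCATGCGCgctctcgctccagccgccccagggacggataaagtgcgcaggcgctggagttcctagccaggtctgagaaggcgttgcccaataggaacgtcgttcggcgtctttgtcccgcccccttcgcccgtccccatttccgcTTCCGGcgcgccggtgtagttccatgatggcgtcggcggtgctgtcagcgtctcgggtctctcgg
Ndufb7: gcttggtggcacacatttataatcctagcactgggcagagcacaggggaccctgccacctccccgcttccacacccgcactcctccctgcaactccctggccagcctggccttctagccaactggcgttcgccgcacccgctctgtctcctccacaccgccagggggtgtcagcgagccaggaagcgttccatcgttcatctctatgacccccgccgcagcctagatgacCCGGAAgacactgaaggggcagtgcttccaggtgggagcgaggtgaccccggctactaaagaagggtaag
The first base of the response element stood 48 bases before the start of Sst. In Cox6a1 the NRF1 motif began 162 bases and the ETS core 15 bases before the start, in Ndufb7 the ETS core began 20 bases before it, and in Erbb4 it began 137 bases before it. No marked motif overlapped another in these 4 regions, and the response element and the NRF1 motif read the same on both strands. Start regions were found for 438 of the genes that rose, 317 of those that fell and 11360 of all genes tested. The ETS core stood in 23.7% of the regions of genes that rose, 28.7% of those that fell and 26.2% of all. The response element stood in 2.51%, 5.05% and 3.20% of the same sets, and the NRF1 motif in 1.83%, 3.15% and 1.94%. Of 3 further motifs searched the same way, CCAAT stood in 34.5%, 42.3% and 38.2%, the TATA box TATAAA in 6.85%, 8.83% and 6.98%, and the YY1 motif AAGATGGC in 6.16%, 6.62% and 4.39%. The ETS core was found in 50% of 60 ribosomal protein genes and in 37.3% of 67 respiratory chain genes. In the same 2 sets the NRF1 motif stood in 1.67% and 7.46%, and the response element in 8.33% and 7.46%. These shares describe letters in the windows and carry no test.

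Genes that rose tended to have long transcripts and genes that fell short ones. The longest protein-coding transcript of a gene had a median length of 7716.5 nt among genes that rose, 1632 nt among genes that fell and 3258.5 nt across the 13888 genes whose length is known (95.4% of those tested). When these genes were divided by length into 5 classes of equal size, 445 in the longest class (5262 to 123179 nt) rose and 4 fell. In the shortest class (371 to 1883 nt), 8 rose and 237 fell. As shares, 16.02% of the longest class rose and 8.53% of the shortest fell. The drift was not limited to genes past the threshold, since 81.8% of the longest class and 22.6% of the shortest had a log2 change above 0. Median log2 changes from the shortest to the longest class were -0.10, -0.04, -0.01, 0.04 and 0.14.

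**Figure D1:**
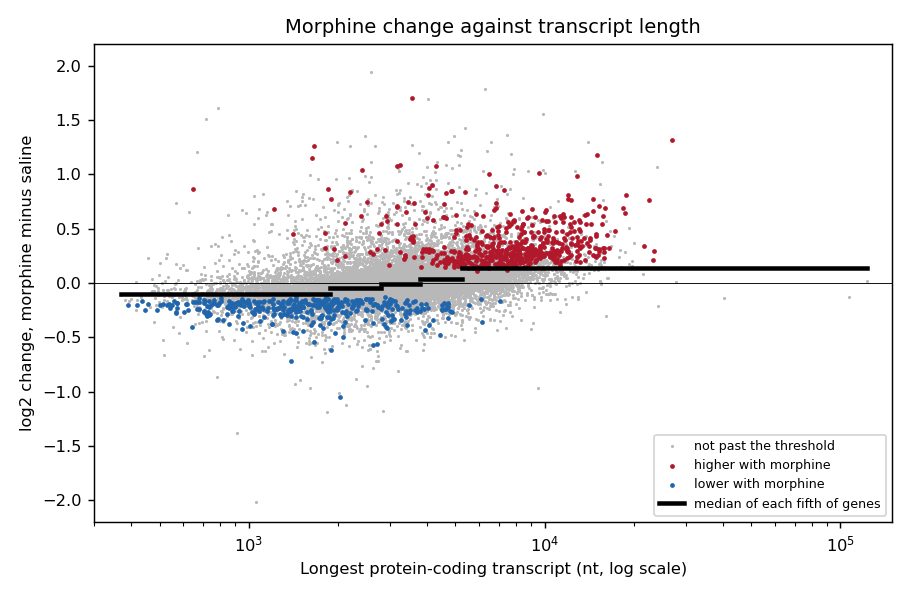
Log2 change with morphine minus saline (vertical axis) against the length of the longest protein-coding transcript in nt (horizontal axis, log scale) for 13888 genes. Red points rose and blue points fell at an adjusted p under 0.05, and black lines mark the median of each of 5 length classes, which lie at -0.10 in the shortest and 0.14 in the longest.

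The same drift could be read library by library. The slope of a library's log2 CPM, centred on each gene's mean over libraries, on log2 transcript length was 0.0382, 0.0282, 0.0469, 0.0436 and 0.0348 in morphine libraries 2, 3, 4, 5 and 6. In the saline libraries it had a lowest value of -0.0780, a median of -0.0554 and a highest of -0.0110. Every morphine library had a positive slope and every saline library a negative one, so the groups did not overlap. The means were 0.0383 ± 0.00735 with morphine and -0.0506 ± 0.0267 with saline (SD, n = 5 and 6), a difference of 0.0890 (exact permutation test, two-sided, p = 0.00433, the smallest this design can give; adjusted over 20 library measures, p = 0.0124). With 1 library left out at a time the difference lay between 0.0835 and 0.0969.

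Length could not be separated from other properties of the same transcripts. Genes that rose had a median coding sequence of 3216 nt, a median 3' untranslated region of 3206.5 nt and a median genomic span of 84691 bp, and those that fell had medians of 741 nt, 492 nt and 8423 bp. GC content ran the other way, with a median of 46.4% among genes that rose and 56.3% among genes that fell. Across genes, which are not independent replicates, Spearman's rho with the log2 change was 0.46 for the longest transcript, 0.37 for the coding sequence, 0.33 for the genomic span, 0.32 for the 3' untranslated region and -0.33 for GC content. Other library measures moved with the group too: the share of counts outside genes averaged 10.3% with morphine and 9.55% with saline (adjusted p = 0.0433). Reads aligned to several places averaged 10.2% with morphine and 10.8% with saline (adjusted p = 0.0325), and the 50 most abundant genes took 8.03% of the counts with morphine and 8.43% with saline (adjusted p = 0.0124, all by the exact permutation test). Their part in the gene results was not tested. A second set of values is therefore given where it matters, from a fit in which the smooth dependence of each library on transcript length was taken out as an offset. In that fit 128 of 13888 genes (0.922%) passed, 61 higher (0.439%) and 67 lower (0.482%), and 59 of the 61 and 32 of the 67 had also passed in the same direction without it.

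Some of the genes that led the list had short transcripts. Slc9a7, which exchanges sodium for protons in the Golgi and has a transcript of 2512 nt, stood at 30.7, 33.1, 27.3, 30.3 and 29.6 CPM with morphine (libraries 2 to 6, in that order here and below). With saline its lowest, median and highest values were 14.3, 18.7 and 20.1 CPM. The groups were well apart, and the log2 change of 0.75 ± 0.0838 (SE; edgeR adjusted p = 6.58e-05) was 0.78 with the length offset. Klhl11, an adaptor of cullin-3 ubiquitin ligases with 2393 nt, had 32.7, 34.3, 28.4, 30.9 and 32.8 CPM with morphine and a lowest, median and highest of 19.1, 20.5 and 23.2 CPM with saline. Its groups did not overlap either, with log2 changes of 0.62 ± 0.0782 (adjusted p = 0.000195) and, with the offset, 0.66. Mtmr9, a myotubularin-related protein that binds phosphatases of its family, rose by 0.28 ± 0.0429 (adjusted p = 0.00101) and by 0.32 with the offset. Plcxd3, a phospholipase C-like protein, and Nt5c1a, a nucleotidase that makes adenosine from AMP, belonged to the shortest length class and rose by 0.86 and 0.69. Nt5c1a missed the threshold in 6 of the 11 fits that each left out 1 library (adjusted p up to 0.0893).

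Oprm1, which encodes the mu-opioid receptor, also has a short transcript by this measure (2420 nt). It had 8.0, 8.38, 4.43, 8.45 and 8.86 CPM with morphine, and its lowest, median and highest values with saline were 2.84, 3.47 and 4.77 CPM. Morphine library 4, the one rich in cortical markers, lay inside the saline range, and the other 4 lay above it. The log2 change was 1.04 ± 0.233 (edgeR adjusted p = 0.0108) with this library, 1.19 ± 0.217 (adjusted p = 0.00329) without it and 1.08 (adjusted p = 0.0283) with the length offset. No other member of the opioid family passed the threshold. Oprl1, the nociceptin receptor, averaged 65.4 ± 8.18 CPM with morphine and 53.4 ± 7.29 CPM with saline (SD, n = 5 and 6; edgeR adjusted p = 0.0616), and Pnoc, its peptide precursor, had a log2 change of 0.79 ± 0.325 (adjusted p = 0.148). Penk had a log2 change of -0.26 ± 0.15 with library 4 and -0.15 ± 0.142 without it. Pdyn had a log2 change of -0.04 ± 0.172 with library 4 and 0.10 ± 0.151 without it. Oprd1 and Oprk1, the delta and kappa receptors, and Pomc, the endorphin precursor, had log2 changes of 0.08, -0.03 and -0.04.

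Signalling genes downstream of opioid and dopamine receptors passed the threshold at shares near those of all genes tested (3.91% higher, 2.67% lower). Of 38 genes for Gi/o proteins, adenylyl cyclases, RGS proteins, receptor kinases, arrestins and GIRK channels, 0 rose and 2 (5.26%) fell, with a median log2 change of 0.00. Rgs4, which speeds the shut-off of Gi/o proteins, had 267, 316, 355, 332 and 308 CPM with morphine and a lowest, median and highest of 355, 412 and 516 CPM with saline. The groups touched at morphine library 4, and the log2 change was -0.42 ± 0.116 (edgeR adjusted p = 0.0339). Gnb2, a G protein beta subunit, fell by 0.25 ± 0.0613 on the log2 scale (adjusted p = 0.0197). In the dopamine and protein kinase A list 1 of 27 (3.70%) rose and 1 fell, and without morphine library 4 these were 2 and 2. The one that fell was Ppp1r1a, an inhibitor of protein phosphatase 1 that protein kinase A switches on. It had 84.1, 105, 96.3, 103 and 88.0 CPM with morphine and 119, 127 and 154 CPM (lowest, median and highest) with saline, without overlap (log2 change -0.45 ± 0.0812, adjusted p = 0.00316). Pde4d, which degrades cyclic AMP, rose by 0.21 ± 0.0506 and was the one phosphodiesterase of 19 past the threshold, where 2 rose without morphine library 4. Rgs4 missed the threshold in 8 of the 11 fits that left out 1 library (adjusted p up to 0.104).

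An inhibitor of CaMKII, a subunit of the same kinase and a scaffold of the postsynapse fell. Camk2n1, the inhibitor of this calmodulin-dependent kinase, had 485, 494, 649, 526 and 536 CPM with morphine and a lowest, median and highest of 652, 700 and 914 CPM with saline. The highest morphine value lay just under the lowest saline value, and the log2 change of -0.47 ± 0.107 (edgeR adjusted p = 0.0116) was -0.50 with the length offset. Camk2b, a subunit of CaMKII itself, and Dlgap3, a scaffold of striatal synapses, fell by 0.23 ± 0.0691 and 0.34 ± 0.0943 on the log2 scale. They were the 2 of 23 postsynaptic scaffold genes (8.70%) past the threshold, with 0 higher, beside 2.67% lower among all genes. Without morphine library 4 their log2 changes were -0.22 ± 0.0743 (adjusted p = 0.0789) and -0.34 ± 0.103 (adjusted p = 0.0535), and 1 gene of the list was higher and 0 lower. Camk2b missed it in 8 and Dlgap3 in 6 of the 11 fits that left out 1 library (adjusted p up to 0.128 and 0.0908).

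Genes past the threshold among glutamate receptors, GABA-A receptors and sodium and calcium channels had all risen. The shares higher were 11.1% of ionotropic glutamate receptor genes, 21.4% of GABA-A subunits and 13.5% of these channel genes, beside 3.91% of all genes. Of 18 ionotropic glutamate receptor genes 2 rose, the NMDA receptor subunit Grin2a (log2 change 0.77 ± 0.21, edgeR adjusted p = 0.032) and the kainate receptor subunit Grik3 (0.35 ± 0.102). Without morphine library 4 neither passed, at 0.74 ± 0.228 (adjusted p = 0.0614) for Grin2a and 0.28 ± 0.102 (adjusted p = 0.108) for Grik3. Of 14 GABA-A receptor subunits 3 rose and 0 fell, with a median log2 change of 0.27, and the median stayed at 0.22 with the length offset. Gabrb1 had 27.7, 28.4, 26.3, 28.2 and 30.6 CPM with morphine, and 17.0, 18.0 and 20.0 CPM (lowest, median and highest) with saline. The groups did not overlap (log2 change 0.63 ± 0.0782, adjusted p = 0.000195), and Gabrb1 was the 1 GABA-A gene past the threshold with the offset, at 0.35. Gabrg3 and Gabrb2 had log2 changes of 0.43 and 0.29, and without morphine library 4 Gabrb2 had 0.30 ± 0.095 (adjusted p = 0.0592), which left 2 GABA-A genes past the threshold. Of 37 voltage-gated sodium and calcium channel genes 5 rose and 0 fell. They included Nalcn, the sodium leak channel (0.27 ± 0.0471), Cacna1b of the N-type presynaptic channel (0.25), Cacna1d of an L-type channel (0.26) and Cacna1e of the R-type channel (0.46 ± 0.102). With the offset 0 of the 37 passed, and 5 rose and 1 fell without morphine library 4. Grin2a, Grik3, Gabrg3 and Gabrb2 missed the threshold in 7, 10, 8 and 8 of the 11 fits that left out 1 library (adjusted p up to 0.0689, 0.108, 0.117 and 0.136).

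Of 80 potassium channel genes 3 (3.75%) rose and 3 (3.75%) fell, beside 3.91% and 2.67% of all genes. Kcna3, the channel Kv1.3 with a transcript of 1902 nt, had 14.4, 14.3, 13.4, 13.9 and 11.3 CPM with morphine, against a lowest, median and highest of 5.95, 7.17 and 11.6 CPM with saline. Morphine library 6 lay inside the saline range and the other 4 above it (log2 change 0.77 ± 0.148, edgeR adjusted p = 0.00409; 0.84 with the length offset). Kcnk9, a leak channel of the TASK group, rose by 0.77 ± 0.184, while Kcnh3, an ether-a-go-go channel, and Kcnj4, an inward rectifier, fell by 0.27 ± 0.061 and 0.31 ± 0.0855. Kcnj4 missed the threshold in 6 of the 11 fits that left out 1 library (adjusted p up to 0.107). Of 46 vesicle release genes 1 rose and 1 fell, and 3 rose and 1 fell without morphine library 4. Napa, which recycles SNARE complexes after fusion, had 210, 224, 230, 211 and 220 CPM with morphine and 251, 261 and 269 CPM (lowest, median and highest) with saline, far outside each other's range (log2 change -0.25 ± 0.0439, adjusted p = 0.00262). Synj1, the lipid phosphatase of vesicle recycling, rose by 0.22 ± 0.0626, and missed the threshold in 7 of those 11 fits (adjusted p up to 0.0968), among them the one without morphine library 4 (0.17 ± 0.0608, adjusted p = 0.0968).

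Genes of adhesion and guidance past the threshold had all risen. Of 54 synaptic adhesion genes 11 (20.4%) rose, of 92 cadherins and protocadherins 11 (11.96%), and of 46 axon guidance genes 8 (17.4%), beside 3.91% of all genes. Tenm1, a teneurin of the synaptic cleft, had 76.1, 74.7, 56.1, 61.6 and 72.5 CPM with morphine and a lowest, median and highest of 29.9, 33.2 and 40.8 CPM with saline. No libraries overlapped, and the log2 change of 0.98 ± 0.141 (edgeR adjusted p = 0.00101) was 0.73 with the length offset. Tenm4 (0.48 ± 0.0967) and Lphn3 (now Adgrl3; 0.32 ± 0.0677), a latrophilin that binds teneurins, rose as well, as did the immunoglobulin-type adhesion genes Chl1 (0.52) and Ncam2 (0.38). Among cadherins Dchs1 (0.38), Pcdh19 (0.49) and the N-cadherin gene Cdh2 (0.30) rose. Sema5a, a semaphorin, had 48.1, 42.5, 54.5, 36.0 and 49.4 CPM with morphine and 26.0, 30.3 and 34.0 CPM (lowest, median and highest) with saline, again without overlap (0.62 ± 0.104, adjusted p = 0.00233). The receptors Plxna3 (0.48), Plxnc1 (0.38) and Nrp1 (0.40) and the repellent ligand Slit2 (0.50) were also higher. Median transcript lengths in the 3 lists were 6079, 4732 and 5902 nt, and median log2 changes of 0.13, 0.14 and 0.08 became 0.03, 0.09 and 0.03 with the offset, which left 1, 0 and 1 genes past the threshold. Chl1, Ncam2, Slit2 and Plxnc1 missed the threshold in 4, 5, 3 and 1 of the 11 fits that left out 1 library (adjusted p up to 0.0649, 0.0589, 0.0623 and 0.0607). Chl1 had a log2 change of 0.46 ± 0.142 (adjusted p = 0.0589) without morphine library 4.

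Erbb4, the receptor of neuregulins on striatal interneurons, whose start region is printed above, had 41.6, 39.2, 35.0, 43.2 and 38.9 CPM with morphine and a lowest, median and highest of 19.8, 23.1 and 23.8 CPM with saline. The lowest morphine library was far above the highest saline library, and the log2 change of 0.81 ± 0.107 (edgeR adjusted p = 0.000258) was 0.56 with the length offset. Its transcript measures 12037 nt. In the neuregulin list of 8 genes, which includes Erbb4 itself, 2 (25%) rose and 0 fell. Among all genes 3.91% rose and 2.67% fell. The list median of 0.23 became 0.11 with the offset, which left 1 gene past the threshold.

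Very large proteins of the ubiquitin system, of lipid transfer and of the cytoskeleton formed a further block. Of 26 HECT ubiquitin ligases 9 (34.6%) rose and 0 fell, and of 46 ubiquitin-specific proteases 7 (15.2%) rose and 0 fell. Among all genes 3.91% rose and 2.67% fell, and in the longest length class 16.02% rose. The list medians of 0.10 and 0.09 became -0.01 and 0.01 with the length offset, which left 0 and 1 genes past the threshold. Huwe1, a ligase of many substrates, had 611, 617, 612, 618 and 617 CPM with morphine and a lowest, median and highest of 490, 509 and 549 CPM with saline. The morphine libraries were almost equal and all above the saline ones (log2 change 0.26 ± 0.0533, edgeR adjusted p = 0.00734), and with the length offset the log2 change was -0.03. Trip12 (0.28) and Ube3a (0.36), the ligase lost in human Angelman syndrome, rose too. Usp9x, a protease that removes ubiquitin from many proteins, had 212, 193, 212, 215 and 221 CPM with morphine, against 140, 155 and 167 CPM (lowest, median and highest) with saline. Its groups did not overlap (0.45 ± 0.0663, adjusted p = 0.00101), and it remained past the threshold with the offset (0.21, adjusted p = 0.0327). Usp34 rose by 0.47 ± 0.0817. Ube3a missed the threshold without morphine library 6 (adjusted p = 0.0588).

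Of 6 lipid transfer genes of the VPS13 type 4 (66.7%) rose and 0 fell, beside 3.91% higher and 2.67% lower among all genes. The median transcript of this list measured 11182.5 nt, and 16.02% of the longest length class rose. Those that rose included Vps13c (0.56 ± 0.0721) and Vps13b (0.22 ± 0.0509). Vps13c kept 0.33 with the length offset (edgeR adjusted p = 0.00221), while the list median of 0.20 became -0.02. Wdfy3, an adaptor of selective autophagy, rose by 0.42 ± 0.0641 and Nek10, a kinase, by 1.01 ± 0.165. Of 15 spectrins, ankyrins and plakins 4 (26.7%) rose and 0 fell, or 2 and 0 without morphine library 4. They included Macf1, which links microtubules and actin, at 0.30 ± 0.0616, and its log2 change was -0.09 with the offset. The list median of 0.06 became -0.15 with the offset, where 0 of the 15 were higher and 2 lower. Dync2h1, the motor of transport inside cilia, rose by 0.39 ± 0.0728. Uhmk1, a kinase of splicing and RNA transport factors, had 68.8, 58.1, 59.3, 57.4 and 59.8 CPM with morphine and a lowest, median and highest of 32.7, 41.8 and 45.2 CPM with saline. Its groups did not overlap (0.58 ± 0.0828, adjusted p = 0.000728; 0.44 with the offset).

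Several nuclear regulators with long transcripts rose. Of 40 chromatin remodellers and lysine methyltransferases 11 (27.5%) rose and 0 fell, with a median log2 change of 0.16, which became 0.00 with the length offset. Kmt2c, a histone H3 lysine 4 methyltransferase of enhancers, had 146, 140, 127, 151 and 144 CPM with morphine, against 96.3, 104 and 118 CPM (lowest, median and highest) with saline. The groups were apart (log2 change 0.43 ± 0.0745, edgeR adjusted p = 0.0026; 0.14 with the offset). Chd6, a chromatin remodeller, rose by 0.27 ± 0.0551. Of 15 genes that write, erase or read DNA methylation 3 rose and 1 fell. Tet1, which oxidises methylcytosine, rose by 0.54 ± 0.1. Dnmt1, the maintenance methyltransferase, rose by 0.16 ± 0.0472 and missed the threshold in 10 of the 11 fits that left out 1 library (adjusted p up to 0.111), with 0.17 ± 0.0509 (adjusted p = 0.0531) without morphine library 4. Mbd3, a short transcript of 1662 nt, fell by 0.20 ± 0.0412 on the log2 scale. Of 328 zinc finger genes named Zfp 18 (5.49%) rose and 1 fell, beside 3.91% and 2.67% of all genes. A log2 change above 0 was seen for 242 of the 328. The list's median of 0.09 became 0.07 with the offset, and Zfp369 (0.62 ± 0.135) was among the 2 that still passed. Of 37 genes of SR splicing factors and hnRNPs 0 passed in either direction, as did 0 of 21 long noncoding RNAs.

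Genes of energy production past the threshold had all fallen, in small steps. In respiratory complex I 15 of 36 measured genes (41.7%) fell and 0 rose, and 35 of the 36 had a log2 change below 0, with a median of -0.15. In complexes II to V 15 of 48 (31.3%) fell and 0 rose, with a median of -0.11. Among all genes 2.67% fell. Ndufb7, a complex I subunit whose start region is printed above, had 62.6, 71.7, 60.7, 62.7 and 66.5 CPM with morphine and 74.5, 77.0 and 80.1 CPM (lowest, median and highest) with saline. All morphine libraries were lower than all saline libraries (log2 change -0.25 ± 0.0491, edgeR adjusted p = 0.0051). Cox6a1, a subunit of cytochrome c oxidase, had 213, 231, 232, 215 and 221 CPM with morphine and 236, 259 and 279 CPM (lowest, median and highest) with saline. The same was seen here (-0.23 ± 0.0512, adjusted p = 0.0114). Ndufs3, Cox7c, Cox4i1 and Uqcr11 had log2 changes of -0.17, -0.26, -0.19 and -0.25. Glycolytic and citric acid cycle genes fell at 4 of 34, or 2 without morphine library 4, with the aldolase gene Aldoa at -0.17 ± 0.0469. Aldoa missed the threshold in 5 of the 11 fits that left out 1 library (adjusted p up to 0.0779). Median transcript lengths in both respiratory lists were 977 and 787 nt, and with the length offset their medians were -0.05 and -0.01, with 0 and 1 genes past the threshold.

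Ribosomal and redox genes past the threshold had fallen too. Of 81 cytosolic ribosomal protein genes 19 (23.5%) fell and 0 rose, and 78 had a log2 change below 0. The number that fell was 7 without morphine library 4, with a median log2 change of -0.11. Rpl28 had 124, 128, 124, 132 and 128 CPM with morphine and a lowest, median and highest of 142, 148 and 156 CPM with saline, with no overlap (log2 change -0.22 ± 0.0385, edgeR adjusted p = 0.00262). The list's median of -0.14 became -0.03 with the length offset, and the 1 gene still past the threshold was Rps20, whose longest annotated transcript of 3706 nt gives it a small correction. Of 77 mitochondrial ribosomal protein genes 3 (3.90%) fell and 0 rose, near the 2.67% lower among all genes. Without morphine library 4 these were 1 and 0. Of 37 antioxidant and selenoprotein genes 8 (21.6%) fell and 0 rose. Sepw1 (now Selenow), a small selenoprotein, had 389, 409, 391, 392 and 380 CPM with morphine and 466, 480 and 499 CPM (lowest, median and highest) with saline. The gap between the groups was wider than either group's range (-0.30 ± 0.0449, adjusted p = 0.00101), and with the offset the log2 change of -0.17 missed the threshold (adjusted p = 0.0681). Selm (now Selenom) of the endoplasmic reticulum, Park7, an oxidative stress sensor, Prdx5, a peroxiredoxin, and Gpx1, a glutathione peroxidase, had log2 changes of -0.26, -0.18, -0.23 and -0.21. Gpx1 missed the threshold in 4 of the 11 fits that left out 1 library, with the largest adjusted p without morphine library 4 (-0.17 ± 0.0567, adjusted p = 0.0701). Outside these lists, Clu, the secreted chaperone clusterin, fell by 0.22 ± 0.042 on the log2 scale.

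**Figure D2:**
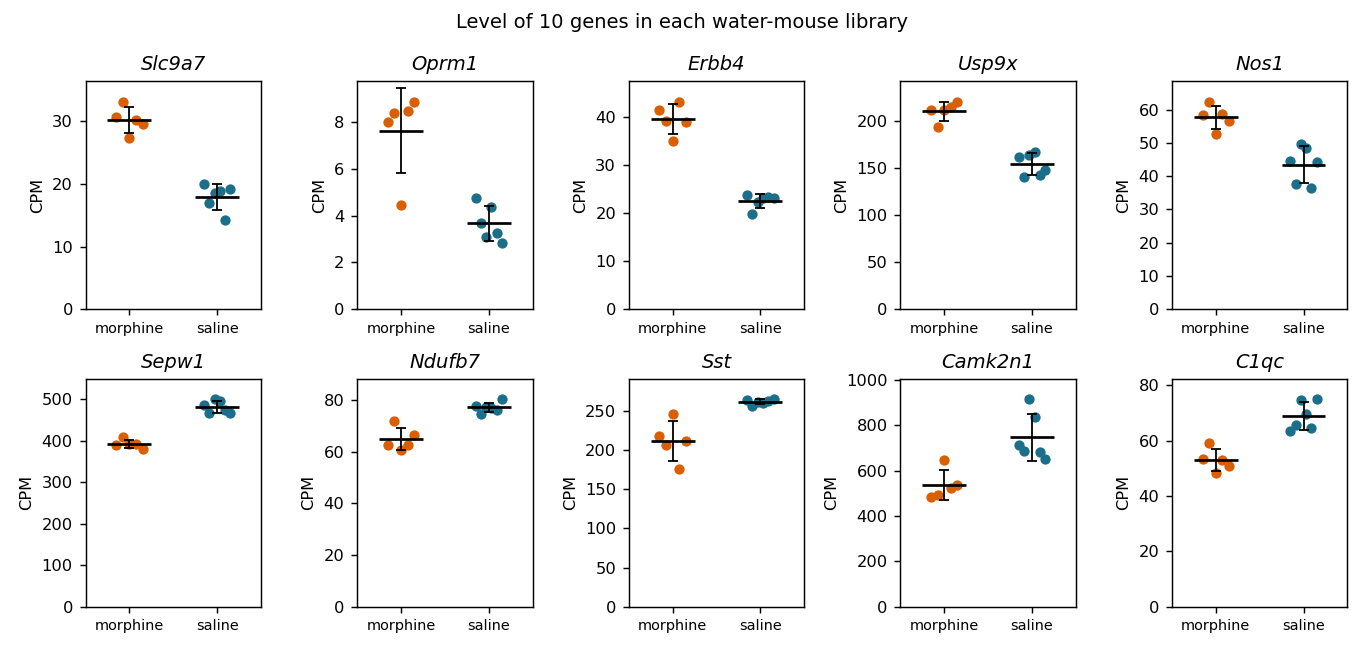
CPM of 10 genes in each water-mouse library (points), with the group mean (line) and SD (bars), for 5 morphine and 6 saline libraries. Slc9a7, Oprm1, Erbb4, Usp9x and Nos1 were higher with morphine and Sepw1, Ndufb7, Sst, Camk2n1 and C1qc lower, and only Oprm1 had a morphine library inside the saline range, at 4.43 CPM.

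Interneuron genes moved in both directions. Of 19 such genes 1 (5.26%) rose and 2 (10.53%) fell, beside 3.91% higher and 2.67% lower among all genes. The 3 that passed are known to mark the same class of striatal interneuron, but they did not share a direction. A change of that class as a whole was not tested. Sst, the precursor of somatostatin, had 219, 207, 246, 176 and 211 CPM with morphine, and with saline a lowest, median and highest of 256, 262 and 265 CPM. The saline libraries were nearly equal, and the morphine libraries lay below them and varied more (log2 change -0.30 ± 0.0647, edgeR adjusted p = 0.00829). Npy, the precursor of neuropeptide Y, had 56.9, 67.4, 80.0, 55.1 and 64.5 CPM with morphine and 75.9, 77.5 and 83.0 CPM with saline (lowest, median and highest). Morphine library 4 lay inside the saline range, and the log2 change was -0.28 ± 0.0784 (adjusted p = 0.0357) with it and -0.36 ± 0.0703 (adjusted p = 0.00469) without it. Nos1, the neuronal nitric oxide synthase, had 58.4, 62.4, 52.6, 58.6 and 56.6 CPM with morphine, against 36.3, 44.4 and 49.8 CPM with saline (lowest, median and highest). It was higher in every morphine library (0.41 ± 0.0829, adjusted p = 0.00614). The transcripts of Sst and Npy measure 721 and 566 nt and that of Nos1 10123 nt, and with the length offset none of the 3 passed (-0.18, -0.14 and 0.21). Npy missed the threshold in 8 of the 11 fits that left out 1 library (adjusted p up to 0.121). The other 16 interneuron genes did not pass.

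Summed markers of several glial and vessel cell types, and of 2 blood cell genes, differed between the groups. In bulk tissue fewer cells of a type and less RNA per cell cannot be told apart. The summed level of 25 myelin markers lay between 6638 and 7747 CPM with morphine and between 7823 and 8968 CPM with saline. Microglia markers (24) summed to 881 to 991 CPM with morphine and 1012 to 1091 CPM with saline, and endothelial markers (26) to 1085 to 1137 CPM with morphine and 1198 to 1301 CPM with saline. The sum of 16 markers of oligodendrocyte precursors ran the other way, at 961 to 1038 CPM with morphine and 869 to 960 CPM with saline. Its lowest morphine and highest saline values nearly met, at 960.95 and 960.37 CPM. Of these 16 genes 8 had a log2 change above 0 and 8 below it, with a median of -0.02 (-0.05 with the length offset). None of these 4 sums overlapped between groups (exact permutation test, two-sided, adjusted p = 0.0124 for each). Astrocyte markers averaged 7151 ± 57.7 CPM with morphine and 7161 ± 210 CPM with saline (SD, n = 5 and 6; adjusted p = 0.918). Pericyte and smooth muscle markers averaged 284 ± 22.1 CPM with morphine and 314 ± 8.14 CPM with saline, and blood cell markers 6.21 ± 0.653 CPM with morphine and 9.83 ± 3.40 CPM with saline (adjusted p = 0.0433 for each, same test), and in both the groups overlapped. The blood cell sum rests on the 2 genes measured of 10 listed, among them Alas2, described below. Ependymal and choroid plexus markers averaged 64.6 ± 10.1 CPM with morphine and 57.1 ± 6.06 CPM with saline (adjusted p = 0.204). The part of these cell types in the gene results was not tested.

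**Figure D3:**
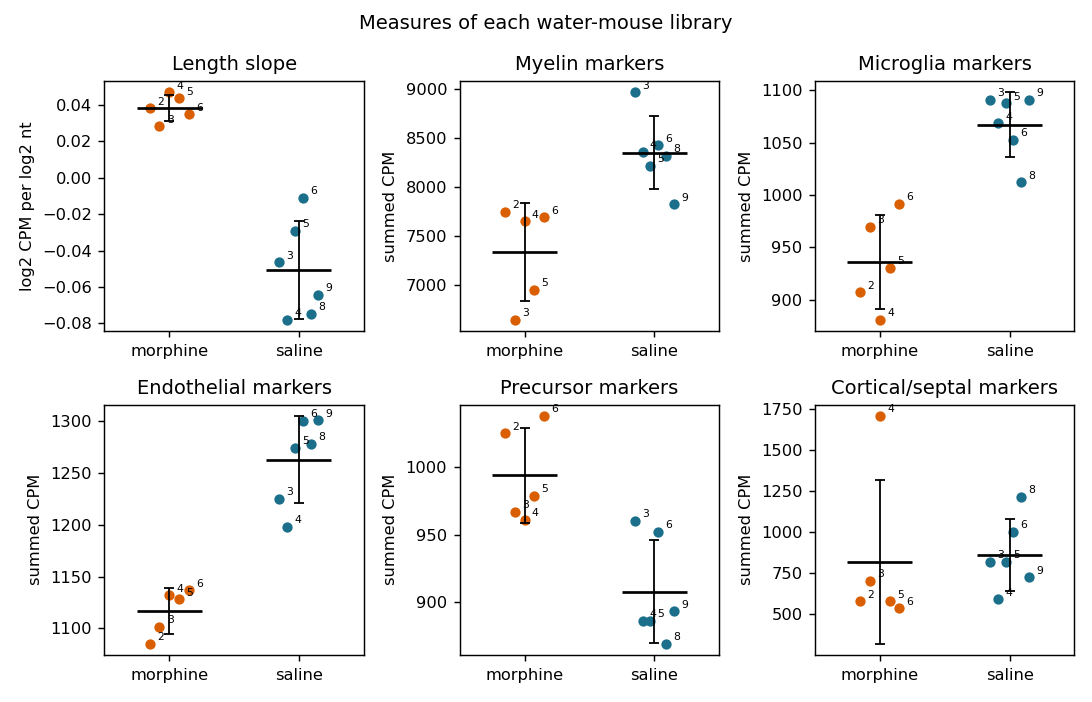
Measures of the 5 morphine and 6 saline libraries of water mice, with library numbers beside the points, the group mean as a line and the SD as bars. The panels show the slope of log2 CPM on log2 transcript length and the summed CPM of 5 marker lists, of which all but the cortical and septal list, with morphine library 4 at 1704 CPM, separated the groups. Vertical axes do not start at 0.

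Gene by gene, 5 of 25 myelin genes (20%) fell and 0 rose, beside 2.67% lower and 3.91% higher among all genes. All 25 had a log2 change below 0. Mbp, the myelin basic protein, had 2488, 2079, 2379, 2163 and 2376 CPM with morphine and 2568, 2745 and 2884 CPM (lowest, median and highest) with saline. The groups were close but did not overlap (log2 change -0.26 ± 0.0511, edgeR adjusted p = 0.00503), and the change was -0.31 with the length offset. Cldn11, the tight junction protein of myelin, fell by 0.20 ± 0.0578 on the log2 scale, and missed the threshold in 8 of the 11 fits that left out 1 library (adjusted p up to 0.1). Of 24 microglia genes 4 (16.7%) fell and 1 (4.17%) rose, and 2 fell and 0 rose without morphine library 4. C1qc, of the complement component that tags synapses, had 53.5, 58.9, 48.4, 53.0 and 50.7 CPM with morphine and 63.5, 67.6 and 74.8 CPM (lowest, median and highest) with saline. Again the groups did not overlap (-0.38 ± 0.0678, adjusted p = 0.00279; -0.28 with the offset). Its partners C1qa and C1qb fell by 0.28 and 0.26 on the log2 scale, and missed the threshold in 4 and 7 of those 11 fits (adjusted p up to 0.0693 and 0.0887). Without morphine library 4 they had log2 changes of -0.23 ± 0.075 and -0.22 ± 0.0777 (adjusted p = 0.0693 and 0.0872). Csf1r, the growth factor receptor of microglia, fell by 0.19 ± 0.0433 although its transcript is long (4701 nt; -0.23 with the offset). Sall1, a transcription factor of microglial identity, had a log2 change of 0.20 ± 0.0603 and missed the threshold in 9 of the 11 fits (adjusted p up to 0.0966), with 0.21 ± 0.0657 (adjusted p = 0.0619) without morphine library 4.

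Of 26 endothelial genes 6 (23.1%) fell and 0 rose, beside 2.67% lower among all genes. Cldn5, the tight junction protein of the blood-brain barrier, had 30.9, 28.5, 27.0, 28.8 and 32.5 CPM with morphine and 36.8, 39.5 and 45.1 CPM (lowest, median and highest) with saline, without overlap (log2 change -0.45 ± 0.0964, edgeR adjusted p = 0.00867). Eng, the endothelial TGF-beta co-receptor endoglin, fell by 0.39 ± 0.0825 and still passed with the length offset (-0.38, adjusted p = 0.0235). Of the 16 precursor genes 3 (18.75%) rose and 0 fell, beside 3.91% higher and 2.67% lower among all genes. The 3 that rose, which are part of the precursor sum above, were Ptprz1 (0.31 ± 0.0558), Vcan (0.42 ± 0.0865) and Tnr (0.54 ± 0.115), a receptor phosphatase and 2 matrix proteins. Their transcripts measure 8068, 12427 and 12202 nt, and none passed with the offset (0.17, 0.17 and 0.30). Medians of the myelin, microglia and endothelial lists were -0.20, -0.21 and -0.17, and -0.15, -0.15 and -0.16 with the offset. Of 28 markers of projection neurons 0 passed, 26 had a log2 change below 0, and the median was -0.17. With the offset, which covered 27 of them, their median was -0.20. Alas2, the heme enzyme of red cells, had 2.80 to 3.48 CPM with morphine and 3.43 to 11.2 CPM with saline. It was the 1 gene that fell by 2-fold or more (-1.05 ± 0.287, adjusted p = 0.0305), and it missed the threshold in 8 of the 11 fits that left out 1 library (adjusted p up to 0.0677), with -1.01 ± 0.314 (adjusted p = 0.0605) without morphine library 4.

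**Figure D4:**
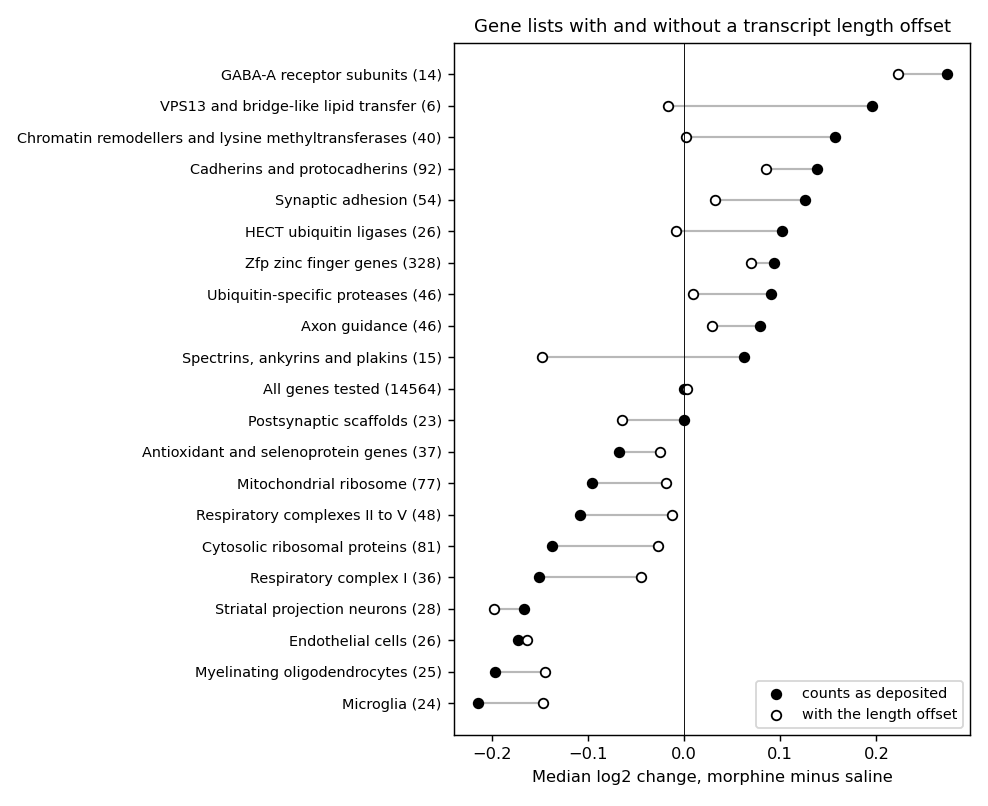
Median log2 change, morphine minus saline, of 20 gene lists and of all genes tested (number of genes measured in brackets), from the counts as deposited (filled) and with the transcript length offset (open; 13888 genes in all). Medians of the respiratory, ribosomal, VPS13, HECT and chromatin lists came within 0.05 of 0 with the offset, while those of microglia, myelin and endothelial genes were -0.15, -0.15 and -0.16. With the offset the medians of striatal projection neuron markers and of spectrins, ankyrins and plakins were -0.20 and -0.15.

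Genes of acute activation, stress hormones and the clock held 4 calls, beside 3.91% higher and 2.67% lower among all genes. Of 26 immediate early genes 0 rose and 1 (3.85%) fell (Ier5, -0.34 ± 0.1, edgeR adjusted p = 0.0406), although 18 had a log2 change above 0 and the median was 0.19. Nr4a1, an activity-induced nuclear receptor, had 98.7, 137, 145, 171 and 32.2 CPM with morphine and 36.2, 51.7 and 112 CPM (lowest, median and highest) with saline. Morphine library 6 was below every saline library while 3 of the others were above all of them. The log2 change of 0.93 ± 0.33 had an adjusted p of 0.098, and without morphine library 6 it was 1.17 ± 0.258 (adjusted p = 0.0202). The latter fit is quoted because of that library's own low value, so it is no separate support. With 1 library left out at a time the log2 change ran from 0.75 to 1.18. Fosl2, of the AP-1 family, also had its lowest morphine value in morphine library 6, at 30.6 CPM (log2 change 0.46 ± 0.168, adjusted p = 0.102). The immediate early genes that fell numbered 2 without morphine library 4. Of 23 glucocorticoid-responsive genes 0 rose and 2 (8.70%) fell, or 0 without morphine library 4, and of 19 clock genes 1 (5.26%) rose. The clock gene was Ciart, a repressor of the clock, at 0.32 ± 0.0835 (0.38 with the length offset). Ier5 and Ciart missed the threshold in 9 and 3 of the 11 fits that left out 1 library (adjusted p up to 0.114 and 0.0659).

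Some long transcripts went against the trend. In the longest class 4 genes fell. They included Myh7b, a myosin heavy chain (6163 nt), Rab11b, a GTPase of recycling endosomes (6109 nt), and Tspan7, a tetraspanin of synapses (7067 nt). Rab11b had 180, 184, 178, 168 and 179 CPM with morphine and 195, 197 and 200 CPM (lowest, median and highest) with saline. The saline libraries were within a few CPM of each other and all above the morphine libraries (log2 change -0.15 ± 0.0342, edgeR adjusted p = 0.0115), and the change was -0.24 with the length offset. Myh7b and Tspan7 fell by 0.36 and 0.16 on the log2 scale, and Tspan7 missed the threshold in 10 of the 11 fits that left out 1 library (adjusted p up to 0.126). Syne1, the giant nuclear envelope protein nesprin-1 with an annotated transcript of 27908 nt, had 573, 632, 608, 657 and 595 CPM with morphine and 556, 608 and 678 CPM (lowest, median and highest) with saline. Its groups overlapped fully and the log2 change was 0.01 ± 0.0617 (adjusted p = 0.95), but with the offset it was -0.41 (adjusted p = 2.01e-05). The longest annotated transcript need not be the one a tissue uses, and the offset depends on it.

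The same comparison in mice given antibiotics used 11 other libraries, 5 with morphine and 6 with saline, and shared none with the water mice. There, 936 genes rose (6.43%) and 964 fell (6.62%). Of the 570 genes that rose in water mice, 218 also rose in antibiotic mice, which was 38.2% of the list from water mice and 23.3% of the antibiotic list. Of the 389 that fell, 124 also fell, or 31.9% and 12.9% of the lists, and 8 genes were called in opposite directions. Median log2 changes from the shortest to the longest length class were -0.08, -0.03, -0.01, 0.02 and 0.08 in antibiotic mice. Among leading genes Slc9a7 had log2 changes of 0.75 in water mice and 0.35 in antibiotic mice, Klhl11 of 0.62 and 0.51, Erbb4 of 0.81 and 0.59, and Oprm1 of 1.04 and 0.38. None of these 4 pairs passed a test of the difference between both changes (edgeR interaction contrast, adjusted p between 0.142 and 0.744). By that test 68 genes (0.467%) differed, 16 of them among the 959 called in water mice. Plxna3 had a log2 change of 0.48 in water mice and -0.24 in antibiotic mice (adjusted p of the difference 0.0113), and Plxnc1 of 0.38 and -0.28 (0.0262). Cldn11 had log2 changes of -0.20 and 0.18 (0.0335), Klc3, a kinesin light chain, of -0.61 and 0.51 (0.0236), Trnp1, a nuclear protein of neural progenitors, of -0.36 and 0.08 (0.0335), and Dnmt1 of 0.16 and -0.17 (0.0276). Klc3 missed the threshold for its water-mouse change in 4 of the 11 fits that left out 1 library (adjusted p up to 0.0814).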

How the data were processed

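Per the labels' protocols, RNA isolated with TRIzol from the nucleus accumbens was turned into SMARTer cDNA, which was sheared and made into libraries. The labels call the molecule polyA RNA and the input total RNA. The authors deposited raw read counts per gene and a normalised signal, equal to counts divided by a constant per library, for fewer genes. Per the submitters' processing notes, STAR 2.4.0, FastQC and edgeR were used. For build, annotation and strand use the sources used here give nothing. Genes that overlap, or lie antisense to each other, may share reads. Reads aligned to several places are not in the genes, so paralogs rest on unique reads.

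The counts of 24061 genes were used, and the normalised signal only to name a gene set for an alternative. The 5 summary entries, which held 21.0% to 22.7% of the counts of a water-mouse library, were left out. Total counts ran from 12186487 to 19755139 in these libraries. Genes were kept with filterByExpr (14564), scaled by TMM and fitted in a 4-group model of all 22 libraries with edgeR 4.0.16 (R 4.3.3), robust quasi-likelihood. Standard errors are the log2 change divided by the square root of F. Library measures were compared with exact permutation tests (scipy 1.17.1), adjusted over 20 measures. Transcript lengths come from GENCODE M21, matched by symbol. The length offset is a lowess curve (span 0.3) of each library's log2 CPM deviation on log2 length. The pipeline was tested on simulated counts.

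Members, the 67 gene lists and tests were chosen with earlier results of these data known, so their counts describe and are not independent support. Named genes are, leaving out clone names, those of smallest p or largest change (25 and 12 per direction), short genes that rose, long genes that fell, those leading under the length offset, and up to 6 per list (the opioid list whole); a few genes the rule names are not reported here. Alternatives covered scaling, filters, DESeq2 1.42.0, limma-voom (limma 3.58.1), the samples fitted, a block, length terms and each library left out. Within groups, 25 pairs of libraries differed by 3.19 to 21.0 times Poisson noise, so no library was a copy. Labels give no batch, and none was modelled. Serial numbers in the library titles ran in a separate block for each group, and the labels do not say what they mark. If they follow the order of handling, that order and the group cannot be told apart.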

Additional observations from a re-analysis of the deposited data

Results flagged for a closer look

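In single libraries a value stood away from the rest of its group by Dixon's 95% criterion in 17 of 256 groups examined, where chance gives about 1 in 20. Morphine library 4 was the one named most often: its cortical and septal markers summed to 1704 CPM against at most 703 in the other morphine libraries, and it had 4.43 CPM of Oprm1, 838 of Penk, 228 of Pdyn and 97.7 of Ndufs3, each below the other 4, and 238 of Grik3 and 481 of Synj1, each above them. Their part in the morphine changes was not tested, and the log2 changes without this library stand beside Oprm1, Penk, Pdyn, Grik3 and Synj1 above; Grik3 and Synj1 missed the threshold without it. Morphine library 2 had 68.8 CPM of Uhmk1 against 57.4 to 59.8 in the others, and morphine library 3 had 128 CPM of Mbd3, above the others. Among saline libraries, number 4 had 19.8 CPM of Erbb4 against 22.3 to 23.8 in the others. Saline library 5 had 154 CPM of Ppp1r1a, 16806 genes detected and 11.9% of its reads aligned to several places. Saline library 6 had 396 CPM of the nuclear RNA Malat1, against 164 to 240 in the others, and 117 CPM of Chd6. Saline library 8 had 458 CPM of Cox4i1, and saline library 9 had 46.9 CPM of Eng.

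The morphine change differed between water and antibiotic mice for 6 genes named above, by the edgeR interaction contrast. The antibiotic-mouse change minus the water-mouse change was -0.71 for Plxna3, -0.66 for Plxnc1 and -0.32 for Dnmt1 on the log2 scale, which were higher with morphine in water mice. It was 0.38 for Cldn11, 1.12 for Klc3 and 0.44 for Trnp1, which were lower with morphine in water mice. The water-mouse changes of Dnmt1, Cldn11, Klc3 and Plxnc1 missed the threshold in 10, 8, 4 and 1 of the 11 fits that left out 1 library. For all 6 the change had the opposite sign in antibiotic mice.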

How the results depend on the processing

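The count of 959 genes (570 higher, 389 lower) lay between 950 and 1139 with RLE or upper quartile scaling, a filter on CPM above 1, the gene set of the authors' table, limma-voom or only the water libraries, was 1326 with DESeq2, and was 746 with no filter, where 258 were lower. Length terms lowered it most: 128 genes passed with the offset (61 higher, 67 lower), 20 with the offset and the replicate block (10 and 10) and 0 with the length slope as a covariate (0 and 0), a term that nearly coincides with the group, where 1031 had an unadjusted p under 0.05. With 1 library left out at a time 509 to 880 passed (340 to 565 higher, 154 to 360 lower), with 615 without saline 4, 549 without saline 8, 509 without morphine 2 and 556 without morphine 6. The replicate number as a block gave 281 genes (178 higher, 103 lower), of which 255 were among the 959. Same-numbered libraries correlated between -0.48 and 0.35, 1 of 4 above 0.1, and 2 of 4 correlated best with their own number, so the numbers were not taken to pair the libraries. The 68 genes whose change differed from that in antibiotic mice became 181 with DESeq2, 10 with the replicate block, 27 with the offset and block, and 28 to 74 with 1 library left out. The length slope kept its direction and its p of 0.00433 with median transcript length, coding length, genomic span or abundant genes (differences of 0.0603, 0.0619, 0.0291 and 0.0940). The cause of these moves was not tested.

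Of 108 genes named, direction turned for 12 under 1 or more alternatives. Of these, 7 had passed the threshold (Vps13b, Huwe1, Macf1, Grin2a, Gabrg3, Cacna1e and Zfp369) and turned under length terms, and 0 of the 7 turned with a library left out. With the length offset log2 changes were -0.41 for Syne1, 0.0055 for Pdyn, 0.0766 for Pomc, -0.0561 for Vps13b, -0.0275 for Huwe1 and -0.0889 for Macf1. With the offset and block they were -0.409 for Syne1, 0.0982 for Pomc, -0.0815 for Vps13b, -0.0268 for Huwe1 and -0.0839 for Macf1. With the slope as covariate they were -0.271 for Syne1, 0.218 for Pdyn, -0.249 for Oprd1, 0.00323 for Oprk1, 0.497 for Pomc, -0.218 for Grin2a, -0.0187 for Gabrg3, -0.085 for Cacna1e, -8.01e-05 for Huwe1 and -0.0705 for Zfp369, and with the block -0.0118 for Syne1. Leaving out 1 library gave Syne1 -0.0164 to 0.0429, Pdyn -0.104 to 0.0999, Oprk1 -0.0901 to 0.0394 and Pomc -0.186 to 0.0861. Depth limits genes under a few CPM most, among them those that rose 2-fold or more.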
